A study of Mus musculus with 24 samples.

Results

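Microglia from 17-month-old wild-type mice were compared with microglia from 3-month-old wild-type mice, using 4 libraries of each age out of 24 in the series. The 8 libraries were chosen by the genotype, age and animal number that labels and file headers give, and no measured value entered the choice. All animals were labelled C57BL/6J, carried no engineered allele and received no treatment that the labels name. The other 16 libraries came from heterozygous (HET) and homozygous (HOM) knockouts of 3110043O21Rik, the mouse counterpart of C9orf72, with 4 animals per genotype and age. They serve here to set the age difference of wild types beside that of the knockouts. At 17 months, columns headed hemi were taken as HET. Brains without their meninges had been digested with papain, per the protocols in the labels. Beads then removed the myelin and captured cells with CD11b, a surface protein of microglia and other myeloid cells. Each library is therefore a bulk sample of such cells, in which fewer cells of a type and less RNA per cell cannot be told apart. Sex is not labelled. Y-linked transcripts marked 1 animal of each age as male.

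The 4 animals of 17 months are called O1 to O4 and the 4 animals of 3 months Y1 to Y4, in the order of the animal numbers in the file headers, and the males are O3 and Y4. Values of single libraries follow that order, and means are given ± SD over the 4 animals of an age. Microglial genes were abundant in all 8 libraries. Levels are in TPM (transcript abundance scaled for length and to a fixed total per library), which the authors deposited as a separate table for each age. The purinergic receptor gene P2ry12 had 1521 to 2222 TPM at 17 months and 1956 to 2913 TPM at 3 months, and all 25 genes on a list of homeostatic microglial genes passed the filter on low values.

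Microglia are the resident macrophages of the brain. They are kept in a surveying state by signals such as TGF-beta and CSF1, in which they express purinergic receptors and other homeostatic genes. Near plaques, damaged myelin or dying cells they can move to a state marked by genes for lipid handling, lysosomal enzymes and secreted factors, known as the disease-associated state, and interferons switch on a further set of genes. Aging of the mouse brain is known to bring out cells in both of these states, together with changes in antigen presentation and in myelin debris.

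The libraries held 16.7, 34.5, 35.7 and 34.7 M alignments at 17 months and 24.4, 21.8, 24.9 and 28.4 M at 3 months. Animals O2, O3 and O4 thus lay above every young animal, and O1 lay below them all. The means were 30.4 ± 9.15 M at 17 months and 24.9 ± 2.71 M at 3 months (exact two-sided permutation p = 0.314 over 70 assignments). Without O1 the difference was 10.1 M, so the test does not show that depth was alike. The median gene stood at 14.3 ± 1.04 TPM at 17 months and 19.3 ± 0.603 TPM at 3 months, and no library of either age reached the range of the other (exact permutation p = 0.0286, the smallest that 70 assignments allow). For this reason each library was centred on its own median of log2(TPM + 1), and every log2 change below is a change relative to the median gene, 17 months minus 3 months. Without centring the median log2 change over all genes tested was -0.35, and with it 0.06. Age and table cannot be told apart, because each table holds a single age, and this limit applies to every comparison below.

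Of 11725 genes whose TPM averaged 1 or more, 5497 (46.9%) were called different between the ages at an adjusted p under 0.05 (limma, Benjamini-Hochberg). They comprised 3290 genes higher at 17 months (28.1% of those tested) and 2207 lower (18.8%). Among them, 595 were higher by more than 1 log2 unit and 45 were lower by more than 1 log2 unit. For 26.0% of the genes all 4 libraries of 17 months lay above those of 3 months after centring, and for 17.5% all lay below. Without centring 64.0% of the genes were called, 8.95% higher and 55.1% lower. Libraries of the same age correlated at r = 0.974 to 0.990 over genes and libraries of different ages at r = 0.926 to 0.971, and the component that separated the ages held 65.0% of the variance. The authors' RPKM tables (reads per kilobase of transcript, scaled to a library's alignments), which were deposited separately, gave 5603 calls among 10928 genes (51.3%). Of 4995 called genes that were tested in both units, 4694 were called in the same direction and 12 in the opposite direction.

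The direction of the age difference followed transcript length. Genes were split into 5 equal groups by their longest annotated transcript. In the group of shortest transcripts, 216 to 1937 bases, the median log2 change was 0.38, and 56.0% were called higher and 3.53% lower. In the group of longest transcripts, from 5146 bases up, the median was -0.14, and 11.8% were called higher and 34.7% lower. Across 11334 genes, which are not independent replicates, Spearman's rho between length and log2 change was -0.411 in TPM, and it was -0.477 across 10732 genes in RPKM. HET and HOM animals gave rho of -0.420 and -0.418 for the same age difference, whereas GC content and the wild-type change had a rho of 0.038. With the trend on length taken out of each library, an alternative chosen after seeing the data, 4444 of 11334 genes were called (39.2%), with 21.7% higher and 17.5% lower. The total RNA input in the labels ran from 54.2 to 129.9 ng at 17 months and from 67.7 to 790.0 ng at 3 months and could not be tied to single columns, so its part in this trend was not tested. Counts with the trend removed stand beside many of the lists below.

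**Figure D1:**
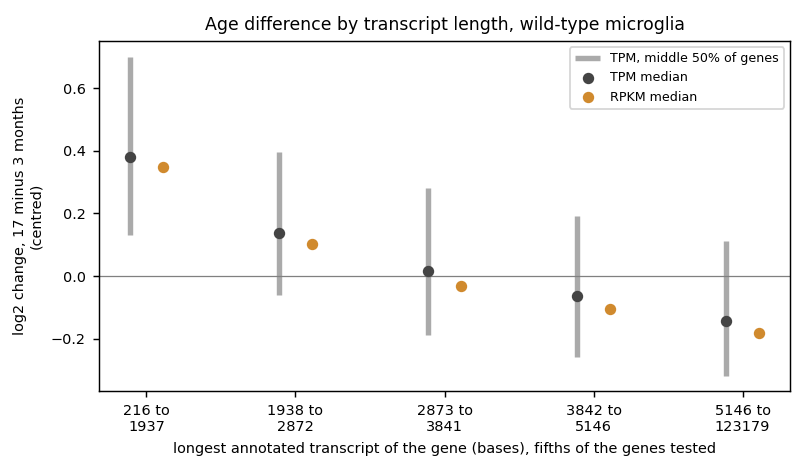
Median log2 change of wild-type microglia (17 minus 3 months, each library centred on its median) in 5 equal groups of genes ordered by the length of their longest annotated transcript in bases. Dark points are TPM medians, bars span the middle 50% of genes, and orange points are RPKM medians; the TPM median is 0.38 in the group of shortest and -0.14 in that of longest transcripts.

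The gene with the largest rise was Spp1, which encodes osteopontin, a secreted phosphoprotein made by activated macrophages and microglia. It had 516, 605, 307 and 260.0 TPM at 17 months, against 17.9, 13.3, 18.4 and 10.2 TPM at 3 months. The lowest old animal was far above the highest young one. Spp1 had a log2 change of 5.09 ± 0.28 (SE, adjusted p = 2.73e-05). On the list of disease-associated microglia, a state first described around amyloid plaques, 26 of 27 tested genes (28 on the list) were called higher at 17 months and 0 lower, with a median log2 change of 1.25 (20 higher and 0 lower without centring, 25 and 0 with the length trend removed). Over all genes the median was 0.06, and 28.1% were called higher.

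Axl, a receptor kinase that binds bridging molecules on apoptotic cells, was among the most even of these genes. Its level was 95.4, 73.8, 66.1 and 70.4 TPM at 17 months, against 29.5, 29.97, 29.2 and 31.9 TPM at 3 months, so the 17-month libraries stood well apart from 4 nearly equal 3-month libraries. Axl had a log2 change of 1.71 ± 0.09 (SE, adjusted p = 1.88e-05). Cst7, which encodes the cathepsin inhibitor cystatin F, had 167, 162, 97.3 and 147 TPM at 17 months, against 18.2, 20.9, 25.2 and 24.7 TPM at 3 months, with animal O3 lowest among the old. Cst7 had a log2 change of 3.03 ± 0.18 (SE, adjusted p = 4.55e-05). Fabp5, a fatty acid carrier, averaged 64.5 ± 18.2 TPM at 17 months and 12.1 ± 1.79 TPM at 3 months. Fabp5 had a log2 change of 2.70 ± 0.19 (SE, adjusted p = 7.71e-05). Itgax, which encodes the integrin CD11c, averaged 63.9 ± 19.2 TPM at 17 months and 18.9 ± 2.51 TPM at 3 months. Itgax had a log2 change of 2.08 ± 0.18 (SE, adjusted p = 0.000107). Cd63, a tetraspanin of late endosomes, averaged 807 ± 83.8 TPM at 17 months and 463 ± 45.2 TPM at 3 months. Cd63 had a log2 change of 1.21 ± 0.10 (SE, adjusted p = 9.36e-05). Trem2, the lipid-sensing receptor needed for the full disease-associated state in mice, moved less, with 3035 ± 210.1 TPM at 17 months and 2577 ± 121 TPM at 3 months. Trem2 had a log2 change of 0.65 ± 0.08 (SE, adjusted p = 0.000401). Its call was lost under quantile normalization (0.09, adjusted p = 0.367). The lysosomal protease gene Ctsd was the exception that did not pass, with a log2 change of 0.32 (adjusted p = 0.0522). It passed as higher in RPKM, with a sex term, with array weights, with all 24 libraries, with a common median, with a pseudocount of 0.1, with a mean of at least 5 TPM and without animal Y3 (adjusted p from 0.0191 to 0.0467), and quantile normalization called it lower (-0.24, adjusted p = 0.0275).

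Of the genes of lipid efflux and storage, 11 of 21 tested genes (22 on the list) were called higher at 17 months and 3 lower, with a median log2 change of 0.60 (9 higher and 7 lower without centring, 9 and 3 with the length trend removed). Over all genes 28.1% were called higher and 18.8% lower. Apoe, which encodes the main lipid carrier of the brain, was already among the most abundant transcripts. It had 15366, 13766, 10642 and 8203 TPM at 17 months, against 5176, 4436, 4636 and 4552 TPM at 3 months, with no overlap between the ages. Apoe had a log2 change of 1.72 ± 0.16 (SE, adjusted p = 0.000144). Lpl, a lipase that releases fatty acids from lipoproteins, had 101, 101, 56.9 and 51.8 TPM at 17 months, against 21.6, 16.7, 20.8 and 25.9 TPM at 3 months, and animals O1 and O2 were well above O3 and O4. Lpl had a log2 change of 2.18 ± 0.22 (SE, adjusted p = 0.000161). Ch25h makes 25-hydroxycholesterol, an oxysterol with antiviral activity, and averaged 20.6 ± 10.4 TPM at 17 months and 1.86 ± 0.429 TPM at 3 months. Ch25h had a log2 change of 3.20 ± 0.32 (SE, adjusted p = 0.000161). Abca1, which exports cholesterol to apolipoproteins, was not called at -0.25 (adjusted p = 0.117), though its log2 change was -0.34 with an adjusted p of 0.026 without animal O1, and it was also called lower under quantile normalization (adjusted p = 0.0483) and without centring. The list's 3 lower calls came to 1 without any of animals O4, Y2 or Y3.

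Most homeostatic genes were not called, and those called were lower at 17 months with 1 exception. On that list, 1 of 25 tested genes was called higher at 17 months and 8 lower, with a median log2 change of -0.08 (0 higher and 22 lower without centring, 1 and 6 with the length trend removed). Over all genes 18.8% were called lower. Under quantile normalization 22 of the 25 were called lower. Tgfbr1, a receptor chain for TGF-beta, had 126, 57.2, 81.8 and 69.9 TPM at 17 months, against 178, 191, 186 and 238 TPM at 3 months, so that every old animal lay below every young animal. Tgfbr1 had a log2 change of -0.87 ± 0.18 (SE, adjusted p = 0.00401). In RPKM its change was -0.24 (adjusted p = 0.0389), and its call was lost in the model of all 24 libraries (adjusted p = 0.119). Nav3, a neuron navigator protein and a marker of microglia, averaged 16.9 ± 3.92 TPM at 17 months and 39.7 ± 7.68 TPM at 3 months. Nav3 had a log2 change of -0.78 ± 0.13 (SE, adjusted p = 0.00167). Mertk, a receptor kinase for clearing apoptotic cells, averaged 202 ± 31.6 TPM at 17 months and 368 ± 25.7 TPM at 3 months. Mertk had a log2 change of -0.46 ± 0.07 (SE, adjusted p = 0.000939). Rgs10, a regulator of G protein signalling, was the single member called higher at 0.51 (adjusted p = 0.000412), with a log2 change of 0.00 with the length trend removed and of -0.18 under quantile normalization. The purinergic receptor genes P2ry12 and P2ry13, which steer microglial processes toward ATP and ADP, were not called. P2ry12 had 1637, 1578, 2222 and 1521 TPM at 17 months, against 1956, 2128, 2256 and 2913 TPM at 3 months, with overlapping ages and a log2 change of 0.00 (adjusted p = 0.999). P2ry13 had a log2 change of -0.01 (adjusted p = 0.94). Both were called lower without centring, at -0.41 (adjusted p = 0.0273) and -0.42 (adjusted p = 0.00889), and under quantile normalization, at -0.62 (adjusted p = 0.0129) and -0.57 (adjusted p = 0.00379).

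Of the transcription factors that define microglia, 2 of 19 tested genes (20 on the list) were called higher at 17 months and 4 lower, with a median log2 change of -0.04 (1 higher and 13 lower without centring, 4 and 3 with the length trend removed). The lower share was near the 18.8% over all genes, of which 28.1% were called higher. Smad3, which carries TGF-beta signals to the nucleus, had 43.2, 36.6, 42.2 and 34.2 TPM at 17 months, against 77.4, 79.8, 76.7 and 75.5 TPM at 3 months. Smad3 had a log2 change of -0.56 ± 0.06 (SE, adjusted p = 0.000158). Sall1, a zinc-finger factor that keeps microglial identity, averaged 221 ± 34.7 TPM at 17 months and 394 ± 48.2 TPM at 3 months. Sall1 had a log2 change of -0.42 ± 0.09 (SE, adjusted p = 0.00581). Bhlhe40, a helix-loop-helix repressor, had 9.81, 10.4, 9.23 and 9.74 TPM at 17 months, against 6.60, 4.09, 5.33 and 5.89 TPM at 3 months. Bhlhe40 had a log2 change of 1.16 ± 0.13 (SE, adjusted p = 0.000248). Spi1, which encodes the master macrophage factor PU.1, was called higher at 0.27 (adjusted p = 0.00945), but its log2 change was -0.14 without centring and -0.09 under quantile normalization. Irf8 and Mef2a were not called, at -0.04 (adjusted p = 0.68) and 0.07 (adjusted p = 0.511), though Irf8 was called lower under quantile normalization (-0.36) and both without centring (-0.45 and -0.34). Mef2c is listed at 0 TPM in all 8 libraries. Without animal O4 or animal Y2 the 4 lower calls fell to 2.

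**Figure D2:**
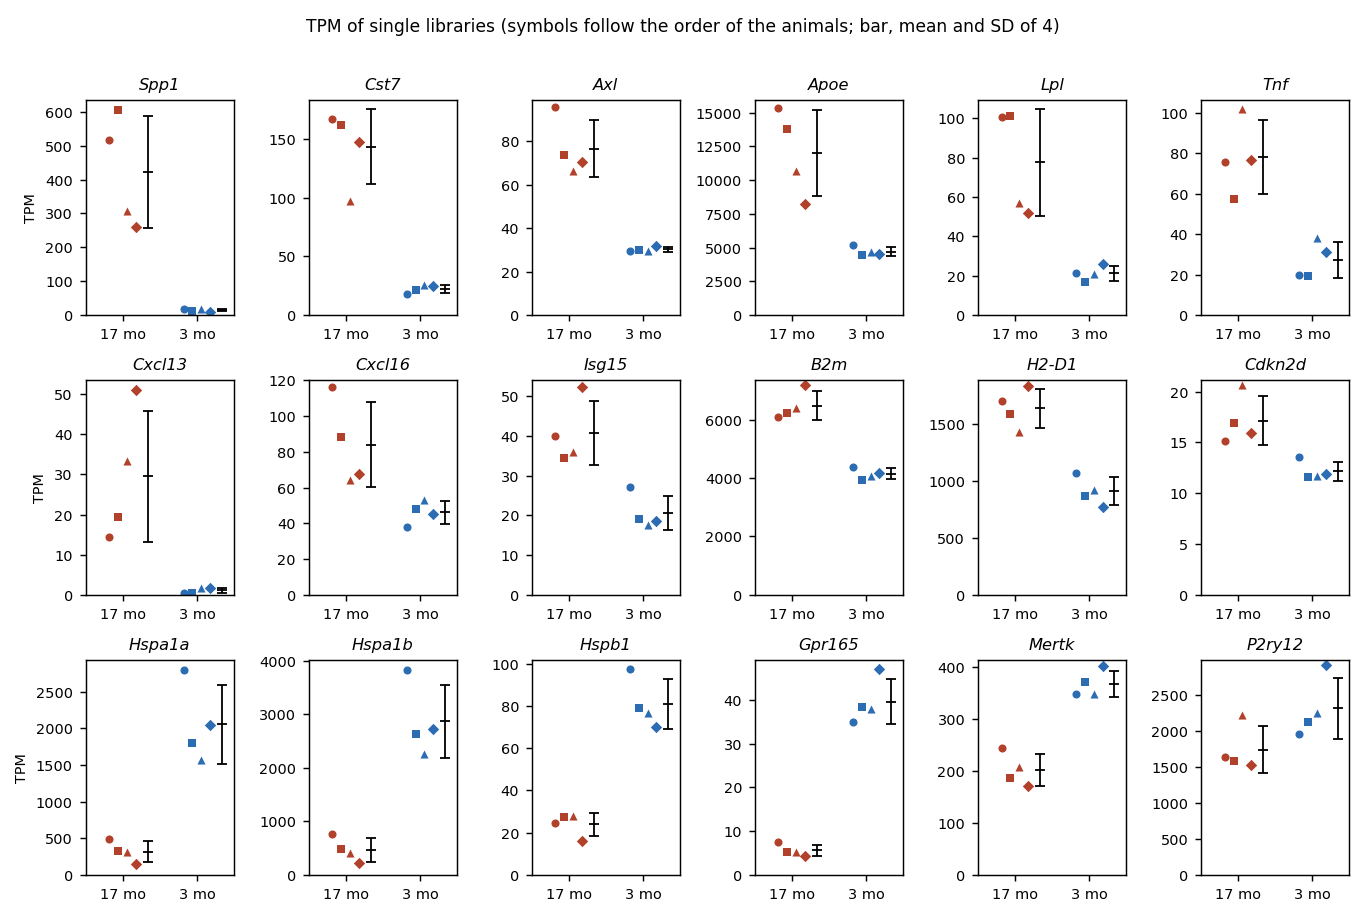
TPM of 18 genes in single libraries of wild-type microglia, 17 months left of 3 months, each axis starting at 0. Symbols follow the order of the animals (circle, square, triangle, diamond), and the bar beside them is the mean with the SD of 4 animals; Spp1 runs from 260.0 to 605 TPM at 17 months, against 10.2 to 18.4 TPM at 3 months, and Hspa1a runs from 140.5 to 489.8 TPM at 17 months, against 1564 to 2802 TPM at 3 months.

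Interferon-stimulated genes were mostly called higher at 17 months, against 28.1% of all genes called higher and 18.8% lower. Of the type I interferon response list, 26 of 37 tested genes (40 on the list) were called higher at 17 months and 0 lower, with a median log2 change of 0.71 (16 higher and 9 lower without centring, 25 and 0 with the length trend removed). Isg15, a ubiquitin-like modifier, had 40.0, 34.5, 36.03 and 52.3 TPM at 17 months, against 27.1, 19.2, 17.6 and 18.7 TPM at 3 months, with animal O4 highest among the old and animal Y1 highest among the young. Isg15 had a log2 change of 1.36 ± 0.18 (SE, adjusted p = 0.000495). Bst2, a membrane tether that holds back enveloped viruses, had 411, 355, 368 and 386 TPM at 17 months, against 285, 270.1, 240.3 and 234 TPM at 3 months. Bst2 had a log2 change of 0.98 ± 0.09 (SE, adjusted p = 0.000113). Ifi204, a nuclear DNA sensor, averaged 36.3 ± 4.55 TPM at 17 months and 20.9 ± 3.61 TPM at 3 months. Ifi204 had a log2 change of 1.19 ± 0.13 (SE, adjusted p = 0.000245). Usp18, which removes Isg15 from proteins, averaged 18.6 ± 2.72 TPM at 17 months and 10.7 ± 2.69 TPM at 3 months. Usp18 had a log2 change of 1.17 ± 0.17 (SE, adjusted p = 0.000697). Irf9, the DNA-binding subunit of the factor that interferon signalling activates, was not called at -0.02 (adjusted p = 0.844). Without centring Irf9 was called lower (-0.44, adjusted p = 0.00331). Without animal Y3 the list held 23 higher and 2 lower calls. Mx2 is listed at 0 TPM throughout.

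The promoters of these genes often carry the interferon-stimulated response element, and 6 windows are printed to show its spacing and copies beside the values. The 250 bases before each RefSeq gene start (build GRCm38.p6) were searched on both strands for GAAA followed by any 2 bases and GAAA again, with overlapping matches allowed. A match was found in 978 of 32851 windows (2.98%), and in 16 of 35 windows of the list, which belong to 15 of 30 genes with a window. Among 13 tested genes with a match 10 were called higher, and among 15 tested genes without a match 9 were, so that most genes were called higher in both cases. The windows run 5′ to 3′ on the gene's strand, with matched letters in capitals and up to 25 flanking bases. They are Isg15 (chr4:156200850-156200921, minus strand), Bst2 (chr8:71537562-71537627, minus strand), Ifit3 (chr19:34583348-34583441, plus strand), Oas1a (chr5:120907526-120907570, minus strand), Rsad2 (chr12:26456538-26456597, minus strand) and Trim30a (chr7:104465195-104465254, minus strand).
Isg15: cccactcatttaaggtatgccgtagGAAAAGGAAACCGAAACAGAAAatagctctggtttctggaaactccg
Bst2: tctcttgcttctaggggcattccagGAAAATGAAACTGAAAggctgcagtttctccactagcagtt
Ifit3: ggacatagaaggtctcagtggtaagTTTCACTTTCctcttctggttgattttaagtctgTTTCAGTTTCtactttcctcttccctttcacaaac
Oas1a: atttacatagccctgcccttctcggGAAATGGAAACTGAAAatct
Rsad2: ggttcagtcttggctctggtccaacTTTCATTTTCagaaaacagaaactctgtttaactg
Trim30a: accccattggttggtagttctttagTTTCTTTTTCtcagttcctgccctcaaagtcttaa
Isg15 held 3 overlapping matches, Bst2 and Oas1a 2 overlapping matches each, Ifit3 2 separate matches on the opposite strand, and Rsad2 and Trim30a 1 match each on the opposite strand. Ifit3, Oas1a, Rsad2 and Trim30a were picked for their match after their values were seen. Ifit3, an interferon-induced antiviral protein gene, averaged 38.4 ± 8.202 TPM at 17 months and 23.2 ± 4.07 TPM at 3 months. Ifit3 had a log2 change of 1.11 ± 0.17 (SE, adjusted p = 0.00113). Oas1a, an oligoadenylate synthase, averaged 29.8 ± 5.56 TPM at 17 months and 21.99 ± 7.05 TPM at 3 months. Oas1a had a log2 change of 0.86 ± 0.21 (SE, adjusted p = 0.00885). Rsad2, which encodes the antiviral enzyme viperin, averaged 3.57 ± 0.585 TPM at 17 months and 2.71 ± 0.188 TPM at 3 months. Rsad2 had a log2 change of 0.71 ± 0.14 (SE, adjusted p = 0.00292). Trim30a holds the letters as well, yet it was not called, with 32.9 ± 4.72 TPM at 17 months and 45.9 ± 4.08 TPM at 3 months. Trim30a had a log2 change of -0.06 ± 0.10 (SE, adjusted p = 0.61).

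Antigen presentation genes were mostly called higher at 17 months in both classes, against 28.1% of all genes called higher and 18.8% lower. On the class I list, 18 of 24 tested genes were called higher at 17 months and 0 lower, with a median log2 change of 0.61 (12 higher and 6 lower without centring, 16 and 1 with the length trend removed), and on the class II list, 10 of 12 tested genes were called higher at 17 months and 0 lower, with a median log2 change of 0.73 (8 higher and 0 lower without centring, 9 and 0 with the length trend removed). B2m, the light chain of class I molecules, had 6104, 6218, 6391 and 7190.0 TPM at 17 months, against 4394, 3940.2, 4071 and 4168 TPM at 3 months, so the ages were apart in TPM before any centring. B2m had a log2 change of 1.05 ± 0.11 (SE, adjusted p = 0.00017). Its call was lost under quantile normalization (0.23, adjusted p = 0.0523). H2-D1, a class I heavy chain whose reads can be shared with near-identical family members, had 1705, 1590.5, 1437 and 1836 TPM at 17 months, against 1072, 874, 927 and 777.4 TPM at 3 months. H2-D1 had a log2 change of 1.26 ± 0.14 (SE, adjusted p = 0.000205). Psme1, a proteasome activator subunit, averaged 380.2 ± 14.0 TPM at 17 months and 293 ± 11.9 TPM at 3 months. Psme1 had a log2 change of 0.79 ± 0.07 (SE, adjusted p = 0.000117). Psmb8, an immunoproteasome subunit, averaged 235 ± 20.4 TPM at 17 months and 194 ± 9.65 TPM at 3 months. Psmb8 had a log2 change of 0.69 ± 0.07 (SE, adjusted p = 0.000161). Tap2, a chain of the peptide transporter, was not called at 0.10 (adjusted p = 0.217), and its log2 change was -0.31 without centring, where it was called lower.

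Among class II genes, H2-Eb1, which encodes a beta chain, had 581, 324, 424 and 392 TPM at 17 months, against 271, 274, 259.6 and 308 TPM at 3 months, with animal O1 highest. H2-Eb1 had a log2 change of 1.01 ± 0.13 (SE, adjusted p = 0.00037). The peptide-loading chaperone genes H2-DMa and H2-DMb1 had log2 changes of 0.72 (adjusted p = 0.000141) and 0.71 (adjusted p = 0.000157). Ctss, the protease that trims the class II invariant chain, averaged 11455 ± 525 TPM at 17 months and 9081 ± 405 TPM at 3 months. Ctss had a log2 change of 0.75 ± 0.09 (SE, adjusted p = 0.000282). Its call was lost under quantile normalization (0.17, adjusted p = 0.0847). Ciita, the class II transactivator, was not called at 0.24 (adjusted p = 0.307).

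Chemokine genes that passed were all higher at 17 months, where 28.1% of all genes were called higher and 18.8% lower. On that list, 9 of 16 tested genes (17 on the list) were called higher at 17 months and 0 lower, with a median log2 change of 0.89 (7 higher and 0 lower without centring, 9 and 0 with the length trend removed). Cxcl13, a B-cell attractant, was low at 3 months and had 14.4, 19.3, 33.3 and 51.0 TPM at 17 months, against 0.531, 0.479, 1.81 and 1.597 TPM at 3 months. Cxcl13 had a log2 change of 4.17 ± 0.40 (SE, adjusted p = 0.000151). Ccl12, a monocyte attractant of mice, had 302, 304, 361 and 429.9 TPM at 17 months, against 180.1, 172, 185 and 208 TPM at 3 months. Ccl12 had a log2 change of 1.30 ± 0.14 (SE, adjusted p = 0.000197). Ccl6 averaged 173 ± 20.3 TPM at 17 months and 119.6 ± 9.46 TPM at 3 months. Ccl6 had a log2 change of 0.93 ± 0.09 (SE, adjusted p = 0.000158). Cxcl16, a membrane-bound chemokine that also binds oxidized lipid, averaged 84.1 ± 23.96 TPM at 17 months and 46.1 ± 6.30 TPM at 3 months. Cxcl16 had a log2 change of 1.23 ± 0.17 (SE, adjusted p = 0.000572). Ccl2, the main monocyte attractant, and Ccl3, an inflammatory chemokine, were not called, at -0.04 (adjusted p = 0.924) and 0.47 (adjusted p = 0.17). Animal Y3 held the most of both, with 105 TPM of Ccl2 and 1769 TPM of Ccl3, and without it Ccl3 had a log2 change of 0.77 (adjusted p = 0.00406).

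Inflammatory cytokines and NF-kB regulators were mixed, since 9 of 24 tested genes (26 on the list) were called higher at 17 months and 3 lower, with a median log2 change of 0.20 (5 higher and 11 lower without centring, 9 and 5 with the length trend removed). The shares over all genes were 28.1% higher and 18.8% lower. Tnf, which encodes tumour necrosis factor, had 75.8, 57.4, 102 and 76.8 TPM at 17 months, against 20.03, 19.3, 37.9 and 31.3 TPM at 3 months, without overlap. Tnf had a log2 change of 1.93 ± 0.23 (SE, adjusted p = 0.000315). Csf1, a growth factor for microglia, averaged 39.0 ± 7.75 TPM at 17 months and 21.3 ± 3.84 TPM at 3 months. Csf1 had a log2 change of 1.25 ± 0.16 (SE, adjusted p = 0.000438). Il1rn, the antagonist of interleukin-1, had a log2 change of 1.52 (adjusted p = 0.000829), and Ptgs2, which makes prostaglandin precursors, of 0.83 (adjusted p = 0.00103). The interleukin-1 family genes Il1a and Il18 were not called at 0.21 (adjusted p = 0.503) and 0.02 (adjusted p = 0.843), and Il18 was called lower without centring (-0.39), with the length trend removed (-0.49) and with length and GC trends removed (-0.48).

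Complement genes depended on the setting, and over all genes 28.1% were called higher and 18.8% lower. On that list, 10 of 17 tested genes (20 on the list) were called higher at 17 months and 2 lower, with a median log2 change of 0.35 (2 higher and 4 lower without centring, 3 and 2 with the length trend removed). The 10 higher calls fell to 6 without animal Y4 and to 8 without any other single animal. The 2 lower calls fell to 1 without O2 or Y2. C3, the central complement component, had 15.8, 15.8, 11.4 and 14.6 TPM at 17 months, against 5.47, 5.08, 4.33 and 3.47 TPM at 3 months. C3 had a log2 change of 1.88 ± 0.16 (SE, adjusted p = 0.000101). With the length trend removed that change was 1.99. C4b, another opsonin precursor whose reads can be shared with C4a, had a log2 change of 0.65 (adjusted p = 0.00242). C1qa, a chain of the recognition molecule C1q, was called higher at 0.58 (adjusted p = 0.00234), but its log2 change was 0.12 with the length trend removed and -0.05 under quantile normalization. For Fc gamma receptors and their adaptor, 5 of 5 tested genes were called higher at 17 months and 0 lower, with a median log2 change of 0.39 (2 higher and 1 lower without centring, 2 and 0 with the length trend removed). Fcgr4, a receptor for IgG, averaged 47.8 ± 10.1 TPM at 17 months and 33.1 ± 6.40 TPM at 3 months (log2 change 0.93 ± 0.19 (SE), adjusted p = 0.00406), and the adaptor gene Fcer1g had a log2 change of 0.68 (adjusted p = 0.000224), which was 0.10 with the length trend removed.

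Of the Toll-like receptors and their adaptors, 4 of 20 tested genes were called higher at 17 months and 5 lower, with a median log2 change of -0.08 (1 higher and 15 lower without centring, 3 and 6 with the length trend removed), shares near those over all genes (28.1% higher and 18.8% lower). Tlr2, a receptor for bacterial lipopeptides, and Ly86, a partner of the receptor-like protein Cd180, were higher at 0.55 (adjusted p = 0.000381) and 0.71 (adjusted p = 0.000221). Tlr7, a sensor of single-stranded RNA, had 113, 91.8, 84.8 and 88.3 TPM at 17 months, against 154, 177, 153 and 183 TPM at 3 months and was lower (log2 change -0.40 ± 0.08 (SE), adjusted p = 0.00371), as was the flagellin receptor Tlr5. Tlr5 had a log2 change of -0.56 ± 0.11 (SE, adjusted p = 0.00375). Of the nucleic acid sensing list, 6 of 16 tested genes (17 on the list) were called higher at 17 months and 2 lower, with a median log2 change of 0.05 (1 higher and 10 lower without centring). The RNase H2 subunit genes Rnaseh2c and Rnaseh2b were higher at 0.77 (adjusted p = 0.000812) and 0.48 (adjusted p = 0.00212), whereas Tmem173, which encodes STING, was not called at -0.04 (adjusted p = 0.598) but was called lower under quantile normalization (-0.38) and without centring (-0.46). The 2 lower calls fell to 1 or 0 without any of animals O2, O4, Y1, Y2 or Y4.

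Of the phagocytic and scavenger receptors, 5 of 20 tested genes (22 on the list) were called higher at 17 months and 4 lower, with a median log2 change of 0.09 (3 higher and 10 lower without centring, 7 and 5 with the length trend removed). Both shares were near those over all genes (28.1% higher and 18.8% lower). Olr1, a receptor for oxidized LDL, was low at both ages but higher in the old, with 2.68 ± 0.600 TPM at 17 months and 0.637 ± 0.221 TPM at 3 months. Olr1 had a log2 change of 1.58 ± 0.16 (SE, adjusted p = 0.000172). Itgb3, the integrin beta-3 chain, had 20.8, 19.0, 21.5 and 18.6 TPM at 17 months, against 40.1, 45.5, 43.5 and 39.8 TPM at 3 months, with every old animal near the same level. Itgb3 had a log2 change of -0.63 ± 0.07 (SE, adjusted p = 0.000207). Cd36, a fatty acid and scavenger receptor, was not called at 0.13 (adjusted p = 0.621). For lysosomal genes, 19 of 39 tested genes (41 on the list) were called higher at 17 months and 2 lower, with a median log2 change of 0.17 (5 higher and 20 lower without centring, 15 and 3 with the length trend removed). Under quantile normalization 4 were called higher and 13 lower. The 2 lower calls fell to 1 without any of animals O2, O4, Y1 or Y3. Npc2, which carries cholesterol out of lysosomes, averaged 438 ± 27.4 TPM at 17 months and 341 ± 8.599 TPM at 3 months. Npc2 had a log2 change of 0.77 ± 0.06 (SE, adjusted p = 8.16e-05). Lamp1, a lysosomal membrane protein, and Ctsl, a cysteine protease, had log2 changes of 0.67 (adjusted p = 0.000144) and 0.56 (adjusted p = 0.000243). The call of Lamp1 was lost under quantile normalization (0.08, adjusted p = 0.309).

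For autophagy genes, 8 of 29 tested genes (30 on the list) were called higher at 17 months and 9 lower, with a median log2 change of -0.05 (2 higher and 20 lower without centring, 8 and 8 with the length trend removed). The higher share was near the 28.1% over all genes, and the lower share was above the 18.8% over all genes. Gabarap and Gabarapl1, ubiquitin-like proteins of the autophagosome membrane, were higher at 0.73 (adjusted p = 0.000158) and 0.66 (adjusted p = 0.000228), and Ulk1, the kinase that starts autophagy, was lower with 16.4, 13.7, 14.8 and 11.2 TPM at 17 months, against 29.4, 31.2, 26.4 and 28.8 TPM at 3 months. Ulk1 had a log2 change of -0.59 ± 0.08 (SE, adjusted p = 0.000484). Of the C9orf72 complex and genes linked to amyotrophic lateral sclerosis or frontotemporal dementia, 5 of 19 tested genes (20 on the list) were called higher at 17 months and 2 lower, with a median log2 change of 0.03 (3 higher and 13 lower without centring). Both shares were below those over all genes. The 2 lower calls became 4 without animal Y3 and 1 without O2, Y2 or Y4. The gene that the series targets, 3110043O21Rik, had 16.7, 15.1, 14.5 and 13.2 TPM at 17 months, against 23.5, 21.9, 20.4 and 25.6 TPM at 3 months. Every old animal was below every young animal in TPM, but relative to the median gene the change was -0.18 (adjusted p = 0.0671), and in RPKM it was -0.21 (adjusted p = 0.0232). It also passed without animal Y3 (-0.21, adjusted p = 0.0488), with trimmed mean of M values scaling (-0.22, adjusted p = 0.038) and without centring (-0.59). Smcr8, its partner in the complex, was lower with 17.3, 13.2, 15.4 and 11.6 TPM at 17 months, against 26.6, 28.9, 25.98 and 31.7 TPM at 3 months. Smcr8 had a log2 change of -0.53 ± 0.08 (SE, adjusted p = 0.00106). Wdr41, the third subunit, was not called at -0.06 (adjusted p = 0.448) but was called lower without centring (-0.47, adjusted p = 0.00132). The antioxidant enzyme gene Sod1 was higher at 0.77 (adjusted p = 0.000171), and Mapt, which encodes the neuronal protein tau, at 2.03 (adjusted p = 0.000994).

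**Figure D3:**
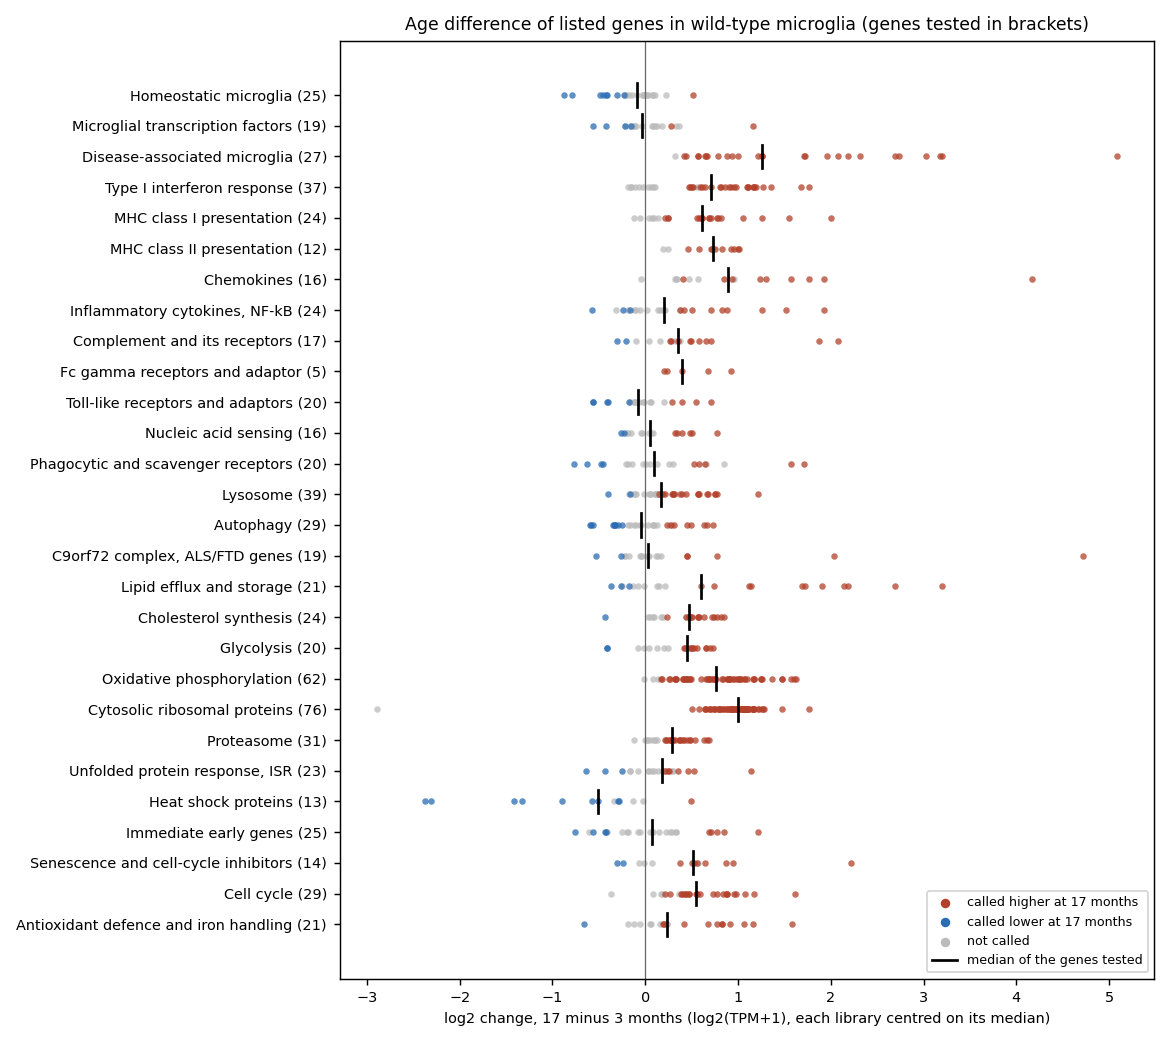
Log2 change (17 minus 3 months, each library centred on its median) of every tested gene in 28 gene lists, with the number tested in brackets. Points are genes, red where called higher at 17 months, blue where called lower and grey where not called, and black bars are list medians; the disease-associated list has its median at 1.25 and the heat shock list at -0.51.

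Genes of translation and respiration formed a uniform block, whereas 28.1% of all genes were called higher and 18.8% lower. For cytosolic ribosomal proteins, 75 of 76 tested genes were called higher at 17 months and 0 lower, with a median log2 change of 0.996 (73 higher and 0 lower without centring, 72 and 0 with the length trend removed), and for nuclear-encoded subunits of oxidative phosphorylation, 59 of 62 tested genes were called higher at 17 months and 0 lower, with a median log2 change of 0.76 (40 higher and 5 lower without centring, 41 and 0 with the length trend removed). These are short transcripts, and their median changes with the length trend removed were 0.55 and 0.37. Rpl22 had 159, 165, 161 and 166 TPM at 17 months, against 109, 107, 107 and 107 TPM at 3 months, with almost no spread within an age. Rpl22 had a log2 change of 1.002 ± 0.07 (SE, adjusted p = 7.71e-05). Rpl23, Rps18 and Rpl11 had log2 changes of 1.11 (adjusted p = 8.16e-05), 1.07 (adjusted p = 8.16e-05) and 1.18 (adjusted p = 9.30e-05), and reads of such genes can be shared with processed pseudogenes. Rps27 was the ribosomal gene not called, and 6 of 8 libraries list it near 0 TPM and animals Y1 and Y2 at 97.1 and 98.2 TPM (log2 change -2.89, adjusted p = 0.149), while in RPKM it was called higher (1.24, adjusted p = 1.48e-05).

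Among respiratory genes, Uqcrh of complex III had 560.0, 671, 530.5 and 624 TPM at 17 months, against 316, 314, 289 and 304 TPM at 3 months. Uqcrh had a log2 change of 1.37 ± 0.11 (SE, adjusted p = 8.58e-05). Ndufa1 and Ndufb5 of complex I had log2 changes of 1.48 (adjusted p = 0.000146) and 0.74 (adjusted p = 9.36e-05), and Atp5l of ATP synthase of 1.06 (adjusted p = 8.16e-05). In glycolysis, 11 of 20 tested genes were called higher at 17 months and 2 lower, with a median log2 change of 0.45 (3 higher and 6 lower without centring, 12 and 2 with the length trend removed). All genes together gave 28.1% higher and 18.8% lower. Gapdh, which makes the first high-energy intermediate, had 1815, 1774, 1816 and 1715 TPM at 17 months, against 1443, 1452, 1539 and 1393 TPM at 3 months (log2 change 0.70 ± 0.07 (SE), adjusted p = 0.000161), although under quantile normalization its log2 change was -0.02. Aldoa and Tpi1, enzymes of the same pathway, had log2 changes of 0.66 (adjusted p = 0.000374) and 0.73 (adjusted p = 0.000375).

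Of the cholesterol synthesis genes, 16 of 24 tested genes were called higher at 17 months and 1 lower, with a median log2 change of 0.47 (3 higher and 5 lower without centring, 16 and 1 with the length trend removed). For this list and the next 2, the shares over all genes are 28.1% higher and 18.8% lower. Msmo1, a sterol demethylating enzyme, had 32.9, 29.6, 34.9 and 35.7 TPM at 17 months, against 27.1, 24.7, 24.8 and 27.9 TPM at 3 months. Msmo1 had a log2 change of 0.75 ± 0.08 (SE, adjusted p = 0.000249). Insig1, which retains the sterol sensor in the endoplasmic reticulum, and Idi1, an isomerase of the pathway, had log2 changes of 0.85 (adjusted p = 0.000379) and 0.82 (adjusted p = 0.000896). For the proteasome, 23 of 31 tested genes were called higher at 17 months and 0 lower, with a median log2 change of 0.28 (3 higher and 10 lower without centring, 6 and 2 with the length trend removed). The core subunit genes Psma7 and Psmb6 had log2 changes of 0.63 (adjusted p = 0.000117) and 0.67 (adjusted p = 0.000144). In antioxidant defence and iron handling, 11 of 21 tested genes (22 on the list) were called higher at 17 months and 1 lower, with a median log2 change of 0.23 (7 higher and 6 lower without centring, 10 and 1 with the length trend removed). The lower calls were 2 without animal O3. Fth1, the ferritin heavy chain that stores iron, had 5367, 6205, 5137 and 7131 TPM at 17 months, against 3005, 2550.3, 2571 and 2439.9 TPM at 3 months, and O4 held the most of it. Fth1 had a log2 change of 1.58 ± 0.15 (SE, adjusted p = 0.000155). Slc40a1, the iron exporter ferroportin, went the other way with 60.9, 49.6, 56.2 and 43.6 TPM at 17 months, against 105, 112, 106 and 119 TPM at 3 months. Slc40a1 had a log2 change of -0.66 ± 0.06 (SE, adjusted p = 0.000145). The peroxiredoxin genes Prdx1 and Prdx5 were higher at 0.91 (adjusted p = 8.16e-05) and 0.83 (adjusted p = 8.16e-05).

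Heat shock genes had the lowest median log2 change of the 38 lists, and over all genes 28.1% were called higher and 18.8% lower. On that list, 1 of 13 tested genes was called higher at 17 months and 9 lower, with a median log2 change of -0.51 (0 higher and 12 lower without centring, 0 and 7 with the length trend removed). Hspa1a, an inducible HSP70 chaperone, had 489.8, 323, 316 and 140.5 TPM at 17 months, against 2802, 1806, 1564 and 2053 TPM at 3 months, and its near-identical copy Hspa1b, which can share its reads, had 757, 481, 404 and 222 TPM at 17 months, against 3839, 2642, 2267 and 2728 TPM at 3 months. Every old animal lay far below every young animal for both genes, with a log2 change of -2.38 (adjusted p = 0.000431) for Hspa1a and -2.31 (adjusted p = 0.000416) for Hspa1b. Hspb1, a small heat shock protein, had 24.3, 27.4, 27.8 and 16.1 TPM at 17 months, against 97.8, 79.1, 77.0 and 69.9 TPM at 3 months. Hspb1 had a log2 change of -1.32 ± 0.16 (SE, adjusted p = 0.000298). Hsf1, the factor that turns on these genes, was listed at 0 TPM in animal O3, and its call at -1.42 (adjusted p = 0.0462) was lost without any of animals O4, Y1, Y2, Y3 or Y4, while without animal O3 its log2 change was -0.88. Hspe1, a mitochondrial chaperone, was the 1 member called higher at 0.50 (adjusted p = 0.00287), a change of 0.01 with the length trend removed. Hspa8, the constitutive HSP70 form, was not called at -0.34 (adjusted p = 0.0575), close to the threshold. It passed without animal O1 (-0.44, adjusted p = 0.0176), in RPKM, with trimmed mean of M values scaling, with array weights, with a pseudocount of 5 and with a mean of at least 5 TPM, and it was lower still under quantile normalization (-0.94, adjusted p = 0.00074) and without centring (-0.75, adjusted p = 0.00199).

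Genes that tissue dissociation can induce were called in shares near or below those over all genes (28.1% higher and 18.8% lower). On the list of immediate early and dissociation-associated genes, 5 of 25 tested genes were called higher at 17 months and 4 lower, with a median log2 change of 0.07 (1 higher and 12 lower without centring, 2 and 4 with the length trend removed). Without animal Y2 there were 2 higher and 2 lower calls, without O3 there were 3 and 8, and the higher calls were 3 without O4, Y1 or Y4. Jun, a subunit of the AP-1 factor, had 1142, 903, 1201 and 967 TPM at 17 months, against 1911, 2244, 2514 and 2839 TPM at 3 months. Jun had a log2 change of -0.76 ± 0.12 (SE, adjusted p = 0.00101). Zfp36, which speeds decay of cytokine mRNA, was lower too at -0.56 (adjusted p = 0.00495). Gadd45b, a stress-inducible gene, and Ier2 were higher at 1.22 (adjusted p = 0.00218) and 0.71 (adjusted p = 0.00679). Fos, the classical immediate early gene, was not called at 0.05 (adjusted p = 0.889). For the unfolded protein and integrated stress response, 7 of 23 tested genes (24 on the list) were called higher at 17 months and 3 lower, with a median log2 change of 0.18 (1 higher and 11 lower without centring, 4 and 3 with the length trend removed). The 3 lower calls fell to 1 without any of animals O2, O4, Y3 or Y4, and the higher calls fell to 4 without animal Y1. Manf, a secreted factor induced by stress of the endoplasmic reticulum, and Trib3, a pseudokinase, were higher at 0.53 (adjusted p = 0.000144) and 1.14 (adjusted p = 0.000748). Sesn2, a nutrient sensor, was lower at -0.44 (adjusted p = 0.00728), and the chaperone gene Hspa5 was not called at -0.16 (adjusted p = 0.2) but was called lower under quantile normalization (-0.58) and without centring (-0.57).

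Senescence and cell-cycle genes were mostly called higher, against 28.1% of all genes called higher and 18.8% lower. Of the senescence list, 8 of 14 tested genes (15 on the list) were called higher at 17 months and 2 lower, with a median log2 change of 0.51 (3 higher and 5 lower without centring, 7 and 2 with the length trend removed). The 2 lower calls fell to 1 without any of animals O4, Y2 or Y3. Cdkn2a, which encodes the cell-cycle inhibitor p16, had 5.80, 6.36, 3.53 and 2.40 TPM at 17 months, against 0.856, 0.161, 0.541 and 0.536 TPM at 3 months, without overlap at a low level. Cdkn2a had a log2 change of 2.22 ± 0.25 (SE, adjusted p = 0.000242). Cdkn2d, a related inhibitor, had 15.1, 16.9, 20.7 and 16.0 TPM at 17 months, against 13.6, 11.6, 11.7 and 11.9 TPM at 3 months. Cdkn2d had a log2 change of 0.87 ± 0.11 (SE, adjusted p = 0.000364). Cdkn1a, which encodes the inhibitor p21, had a log2 change of 0.64 (adjusted p = 0.000667). For the cell cycle, 24 of 29 tested genes (34 on the list) were called higher at 17 months and 0 lower, with a median log2 change of 0.55 (7 higher and 1 lower without centring, 21 and 0 with the length trend removed). Stmn1, a microtubule-destabilizing protein that neurons also express, had 92.0, 131, 99.0 and 138 TPM at 17 months, against 52.3, 51.3, 46.5 and 44.5 TPM at 3 months. Stmn1 had a log2 change of 1.62 ± 0.17 (SE, adjusted p = 0.000183). Top2a, a topoisomerase of dividing cells, averaged 4.55 ± 0.979 TPM at 17 months and 3.09 ± 0.38 TPM at 3 months. Top2a had a log2 change of 0.84 ± 0.13 (SE, adjusted p = 0.000914). Ccnb2, a mitotic cyclin, had a log2 change of 1.17 (adjusted p = 0.000865). Pcna, the sliding clamp of replication, had 113, 116, 121 and 109 TPM at 17 months, against 111, 109, 105 and 115 TPM at 3 months, so that the ages overlapped in TPM. It was called after centring (log2 change 0.47, adjusted p = 0.00028).

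The other genes with the largest rises were Kif5a, Gng13, Kif5c, Rapgef4, Cxcl13, Bcas1, Kif1a, Nrsn1, Pcsk1n, Rph3a and Ugt1a6b. Kif5a, a kinesin motor of axonal transport, had 611, 1244, 92.9 and 1295 TPM at 17 months, against 31.0, 23.1, 34.05 and 21.5 TPM at 3 months. Animal O3 was far below the other 3 old animals, though still above every young animal. Kif5a had a log2 change of 4.72 ± 0.75 (SE, adjusted p = 0.0012). Kif5c, another kinesin, Gng13, a G protein subunit, Rapgef4, an exchange factor for Rap, Kif1a, a carrier of synaptic vesicle precursors, Nrsn1, a neuronal vesicle protein, Pcsk1n, a proprotein convertase inhibitor, and Rph3a, a synaptic vesicle protein, had log2 changes of 4.35, 4.51, 4.21, 3.81, 3.76, 3.73 and 3.72, with adjusted p from 0.000323 to 0.00208. In all 8 of these genes, Kif5a included, animal O3 was lowest among the old and animal O1 next. The neuronal marker Snap25, a synaptic membrane-fusion protein, ordered the old animals in the same way, with 9.81, 23.2, 3.74 and 24.9 TPM at 17 months, against 2.23, 1.41, 1.38 and 0 TPM at 3 months. Snap25 had a log2 change of 3.10 ± 0.59 (SE, adjusted p = 0.00275). Bcas1, a gene of myelinating oligodendrocytes, had 119.8, 218, 145 and 319.8 TPM at 17 months, against 30.9, 12.6, 17.5 and 11.4 TPM at 3 months. Bcas1 had a log2 change of 3.81 ± 0.39 (SE, adjusted p = 0.000171). Ugt1a6b, a glucuronosyltransferase whose locus shares exons with related genes, had 9.88, 20.4, 23.1 and 12.3 TPM at 17 months, against 3.63, 0, 0.677 and 0 TPM at 3 months. Ugt1a6b had a log2 change of 3.72 ± 0.49 (SE, adjusted p = 0.000491).

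Markers of other cells moved with these genes, while over all genes 28.1% were called higher and 18.8% lower. Of the oligodendrocyte markers, 14 of 14 tested genes (18 on the list) were called higher at 17 months and 0 lower, with a median log2 change of 1.59 (11 higher and 0 lower without centring, 14 and 0 with the length trend removed). Their summed level was 4208, 5923, 4852 and 8076 TPM at 17 months, against 2505, 2182, 2326 and 1993 TPM at 3 months. The myelin genes Mbp and Mobp had log2 changes of 3.50 (adjusted p = 0.000265) and 3.62 (adjusted p = 0.000248), and Mobp stood at 155, 273, 189 and 379 TPM at 17 months, against 50.9, 20.5, 23.1 and 14.6 TPM at 3 months. Animals O4 and O2 were highest, as they were for Bcas1. Of the neuronal markers, 10 of 11 tested genes (15 on the list) were called higher at 17 months and 0 lower, with a median log2 change of 1.57 (9 higher and 0 lower without centring, 11 and 0 with the length trend removed). Their summed level was 73.3, 150.0, 29.7 and 154 TPM at 17 months, against 23.4, 20.3, 21.8 and 16.2 TPM at 3 months, and Syp, a synaptic vesicle protein, had a log2 change of 1.85 (adjusted p = 0.000431). Of the astrocyte markers, 9 of 13 tested genes (14 on the list) were called higher at 17 months and 0 lower, with a median log2 change of 0.89 (2 higher and 0 lower without centring, 6 and 0 with the length trend removed). Trimmed mean of M values scaling and quantile normalization each left 6 called higher. Their sums were 376 to 813 TPM at 17 months and 258 to 432 TPM at 3 months, which overlap. The astrocyte count fell to 5, 3, 4 and 2 higher without animals O2, Y2, Y3 and Y4. S100b and Gfap, astrocyte genes of which S100b is also made by oligodendrocytes, had log2 changes of 2.56 (adjusted p = 0.00102) and 1.51 (adjusted p = 0.00315). None of these markers was at 0 TPM in all libraries. The part of RNA from these cells in the results above was not tested.

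Markers of myeloid cells other than microglia and of blood were called in shares near or below those over all genes (28.1% higher and 18.8% lower). For border-associated macrophages, 4 of 15 tested genes were called higher at 17 months and 1 lower, with a median log2 change of 0.13 (1 higher and 5 lower without centring, 2 and 1 with the length trend removed). Their sums were 567 to 994 TPM at 17 months and 965 to 1096 TPM at 3 months, and the lower calls were 3 without animal O3. Stab1, a scavenger receptor that microglia express as well, was lower at -0.77 (adjusted p = 0.00111), and Clec12a and Ms4a7 were higher at 0.75 (adjusted p = 0.00129) and 0.96 (adjusted p = 0.00325). The folate receptor gene Folr2 was higher at 0.58 (adjusted p = 0.0114) with overlapping ages, while the defining macrophage genes Mrc1 and Cd163 were not called, at -0.21 (adjusted p = 0.459) and 0.00 (adjusted p = 0.983). Mrc1 and Cd163 were called lower without centring, at -0.62 (adjusted p = 0.044) and -0.42 (adjusted p = 0.0243). For monocytes, 3 of 13 tested genes (14 on the list) were called higher at 17 months and 0 lower, with a median log2 change of 0.46 (2 higher and 0 lower without centring, 1 and 0 with the length trend removed). Sums of monocyte markers were 324 to 492 TPM at 17 months and 276 to 429 TPM at 3 months. The calcium-binding protein genes S100a4 and S100a6 were higher at 1.02 (adjusted p = 0.00123) and 1.07 (adjusted p = 0.00655), and their log2 changes were 0.37 and 0.52 with the length trend removed, neither of them called.

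For neutrophils, 0 of 15 tested genes (16 on the list) were called higher at 17 months and 1 lower, with a median log2 change of 0.03 (0 higher and 2 lower without centring, 0 and 1 with the length trend removed). Sums of neutrophil markers were 741 to 2863 TPM at 17 months and 1190.5 to 2871 TPM at 3 months. The single call, Csf3r, a receptor gene that microglia also express, was -0.22 (adjusted p = 0.0261), and it was lost without any of animals O2, O3, O4, Y1, Y2 or Y3. A neutrophil gene was called higher without animal Y1. S100a8, an abundant neutrophil gene, was not called at 0.03 (adjusted p = 0.969) and ranged from 142 to 847 TPM at 17 months and from 288 to 957 TPM at 3 months. For lymphocytes, 0 of 9 tested genes (25 on the list) were called higher at 17 months and 0 lower, with a median log2 change of 0.29 (0 higher and 2 lower without centring, 0 and 1 with the length trend removed), and 1 was called higher without animal O1. Sums of lymphocyte markers were 55.6 to 85.9 TPM at 17 months and 64.9 to 85.8 TPM at 3 months. For endothelial and mural cells, 2 of 16 tested genes (18 on the list) were called higher at 17 months and 0 lower, with a median log2 change of 0.48 (0 higher and 0 lower without centring, 3 and 0 with the length trend removed). Sums of these markers were 1036 to 1169 TPM at 17 months and 720.1 to 1251 TPM at 3 months. The higher calls were 8 without animal Y3 and 1 without any other animal except Y1. Bsg, a membrane glycoprotein, was higher at 0.66 (adjusted p = 0.00337), and the tight junction gene Cldn5 was not called at 0.82 (adjusted p = 0.0782) but passed without animal Y3 (1.15, adjusted p = 0.011). For red cells, 1 of 5 tested genes (8 on the list) was called higher at 17 months and 0 lower, with a median log2 change of 0.77 (1 higher and 0 lower without centring, 0 and 0 with the length trend removed). That call was lost without any of animals O2, O4, Y2 or Y4. Hba-a1, a haemoglobin chain, ranged from 19.6 to 260.4 TPM at 17 months and from 19.4 to 424 TPM at 3 months. For choroid plexus and ependyma, 0 of 9 tested genes (12 on the list) were called higher at 17 months and 0 lower, with a median log2 change of 0.06 (0 higher and 0 lower without centring, 0 and 0 with the length trend removed). A single gene was called higher without animal O1. Ttr, the main choroid transcript, was not called at 0.33 (adjusted p = 0.515).

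**Figure D4:**
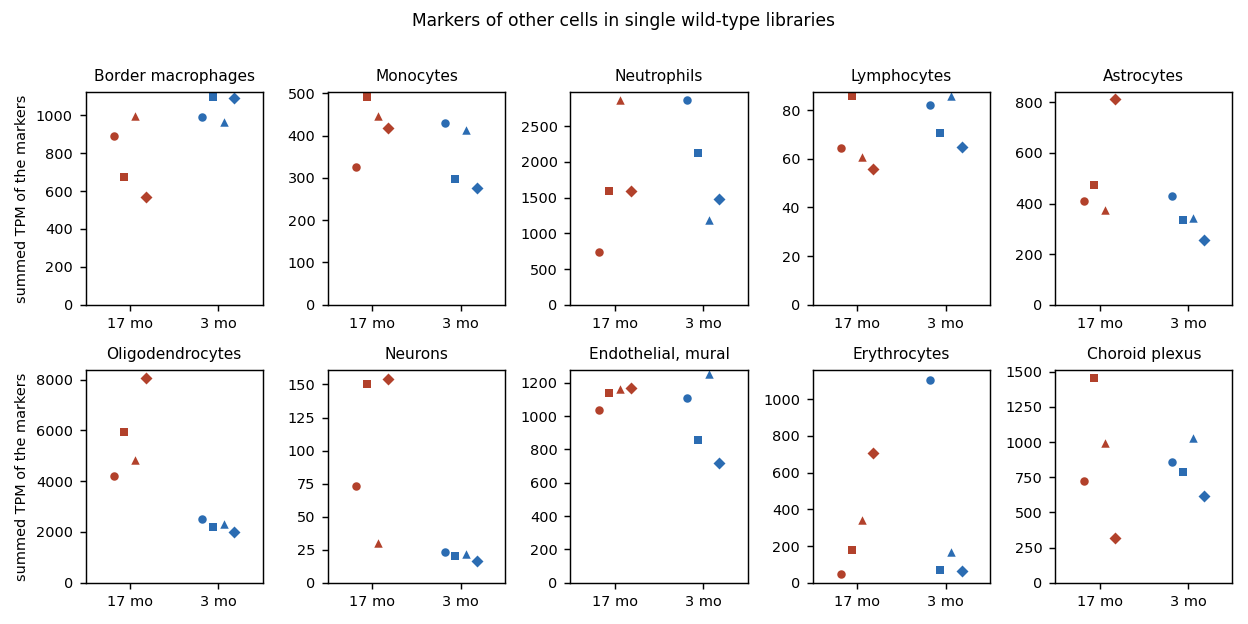
Summed TPM of marker genes of 10 other cell types in single wild-type libraries, 17 months left of 3 months, each axis starting at 0, with symbols in the order of the animals (circle, square, triangle, diamond). Oligodendrocyte and neuron sums do not overlap between the ages, while those of the other 8 types do.

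Beside the heat shock genes, the largest falls were those of Gpr165, Zbtb18, Tbc1d31, Per1, Slc23a2, Ttll3, Wdfy2 and Hist1h1e. Gpr165, an orphan G protein-coupled receptor found in microglia, had 7.45, 5.20, 5.25 and 4.33 TPM at 17 months, against 35.1, 38.4, 37.9 and 47.1 TPM at 3 months, with little spread at either age. Gpr165 had a log2 change of -2.23 ± 0.11 (SE, adjusted p = 1.56e-05). HET and HOM animals gave log2 changes of -2.24 and -2.27 for the same gene. Per1, a clock gene, had 18.7, 14.0, 18.8 and 12.4 TPM at 17 months, against 66.9, 88.5, 32.5 and 50.8 TPM at 3 months, with a wide spread among young animals. Per1 had a log2 change of -1.36 ± 0.25 (SE, adjusted p = 0.00265). The hour of dissection is not labelled. Wdfy2, an endosomal adaptor, averaged 13.4 ± 4.91 TPM at 17 months and 44.5 ± 3.35 TPM at 3 months. Wdfy2 had a log2 change of -1.30 ± 0.16 (SE, adjusted p = 0.000385). Ttll3, which adds glycine chains to tubulin, averaged 10.8 ± 2.18 TPM at 17 months and 38.1 ± 5.80 TPM at 3 months. Ttll3 had a log2 change of -1.33 ± 0.13 (SE, adjusted p = 0.000161). The linker histone gene Hist1h1e, Zbtb18, a transcriptional repressor, and Tbc1d31, a centrosomal protein, had log2 changes of -1.23 (adjusted p = 0.00124), -1.55 (adjusted p = 0.000157) and -1.53 (adjusted p = 0.00392). In RPKM the falls of Zbtb18, Tbc1d31, Slc23a2 and Hsf1 were smaller, at -0.25, -0.45, -0.22 and -0.41. Slc23a2, a vitamin C transporter, was called at -1.33 (adjusted p = 0.034), -0.87 without animal O2, and its call was lost without any of animals O4, Y1, Y2, Y3 or Y4 and in the model of all 24 libraries.

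For most genes the age difference of wild types was not called different from that of the knockouts. Of all genes, 29.0% were called different between the ages in HET animals and 39.6% in HOM animals. In a single model of all 24 libraries, the age difference of wild types differed from that of HOM animals for 478 of 11745 genes (4.07%, against 2536 genes at an unadjusted p under 0.05) and from that of HET animals for 140 genes (1.19%, against 2042). These counts rested on single animals and on centring. Without centring they were 29 (0.247%) and 88 (0.749%), and leaving out single animals moved them to between 130 (without Y1) and 758 (without a HET animal of 3 months) and to between 16 (without Y2) and 478 (without a HET animal of 3 months). Of the 478 genes, 391 had the more positive change in wild types and 87 the more negative.

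P2ry12 and P2ry13 were among the genes that differed. Their wild-type changes relative to the median gene were near 0, though below it without centring and under quantile normalization as given above, whereas the log2 changes of HOM animals were -0.93 and -0.63, and the differences were 0.93 (adjusted p = 0.028) and 0.62 (adjusted p = 0.0158). Mef2a differed in the same sense by 0.54 (adjusted p = 0.0446). Several rises of wild types were smaller in HOM animals, among them Ctss by 0.72 (adjusted p = 0.00312), Ly86 by 0.57 (adjusted p = 0.0108), Rgs10 by 0.48 (adjusted p = 0.012), Ccl12 by 1.12 (adjusted p = 0.0128), Lamp1 by 0.44 (adjusted p = 0.0149) and Ctsl by 0.42 (adjusted p = 0.0184). P2ry13, Ctss, Ly86, Rgs10, Ccl12, Lamp1 and Ctsl stayed called whichever of the 24 animals was left out, P2ry12 in 19 of these 24 fits and Mef2a in 10. None of these 9 genes was called without centring, where the adjusted p for Ctss was 0.0505 and for P2ry12 0.124. The lists with 4 or more genes called different from HOM were class II presentation (4 of 12 tested genes), homeostatic microglia (6 of 25), lysosome (9 of 40), disease-associated microglia (5 of 27) and ribosomal proteins (10 of 76), and in each of these genes the change was the more positive in wild types.

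No heat shock gene passed the test of a difference from either knockout. Hspa1a had log2 changes of -0.05 in HET and -0.34 in HOM animals, against -2.38 in wild types, and the wild type minus HOM difference was -2.04 (adjusted p = 0.244). The wild type minus HET difference was -2.33 (adjusted p = 0.236). The interferon and heat shock lists, with 37 and 13 genes, each held 0 genes called different from either knockout. Over all genes 4.07% were called different from HOM and 1.19% from HET. In lists of this size 0 is near those shares, and the glycolysis and cell cycle lists held 0 as well. With age, the heat shock list held 1 gene called higher and 1 lower in HET animals and 0 in HOM animals. Its median log2 changes there were -0.09 and -0.04, against -0.51 in wild types. Oligodendrocyte genes differed from HET animals, since 4 of 14 tested members had the more positive change in wild types, with Mbp at 3.55 (adjusted p = 0.0159) and Ermn, a myelin cytoskeleton gene, at 2.24 (adjusted p = 0.0118). Kif5a differed by 4.36 (adjusted p = 0.042, still called in 9 of 24 fits that each left out 1 animal), with a log2 change of 0.36 in HET animals.

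**Figure D5:**
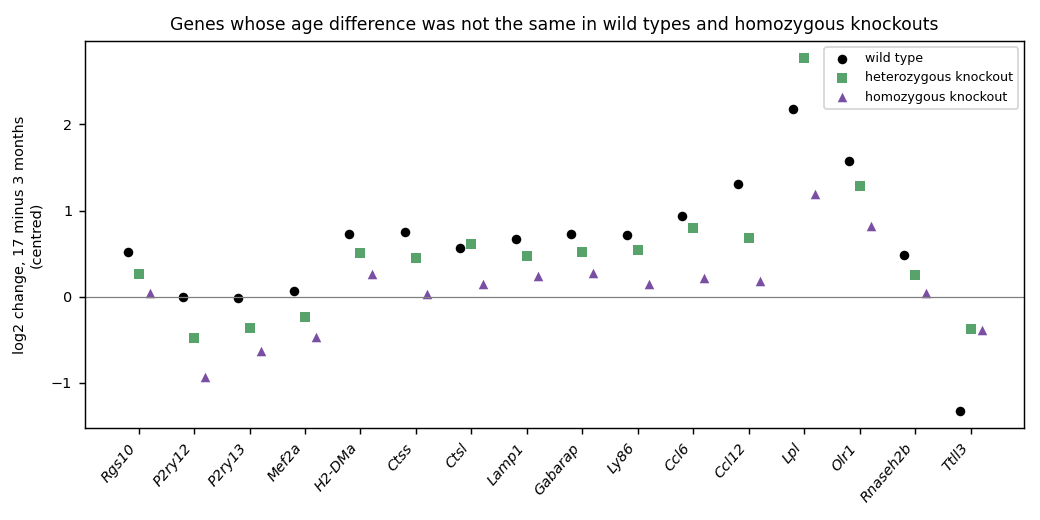
Log2 change with age (17 minus 3 months, each library centred on its median) of 16 genes in wild types (black circles), heterozygous (green squares) and homozygous knockouts (purple triangles). All 16 genes were called different between wild types and homozygous knockouts in the model of 24 libraries; P2ry12 lies near 0 in wild types and at -0.93 in homozygous knockouts.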

How the data were processed

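The authors deposited TPM summed to genes and, separately, RPKM with alignment totals, in a table per age. Salmon 0.8.2, TopHat2 2.1.1, Partek 7.17.0918, DESeq2 and the build mm10 are named, per the submitters' processing notes; the tool behind each table and the annotation are not given in the sources used here. No table holds counts, so no count test was run. Columns were grouped by the animal numbers and genotypes in the file headers, which could not be tied to replicate numbers. The TPM headers carry no genotype, which was taken from the RPKM headers through the animal number, and 17-month columns headed hemi were taken as HET, a reading that the sources used here do not settle. Over the genes present in both TPM tables, wild-type columns summed to 83.5% to 90.7% of the total the unit implies.

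Genes in both TPM tables (20636) with a mean of at least 1 TPM were transformed to log2(TPM + 1), centred per library and tested with limma 3.58.1 in R 4.3.3 (trend, two-sided, Benjamini-Hochberg over all genes). Adding 1 makes log2 changes of low genes smaller than those of their TPM before centring. Library medians differed by -0.41 on that scale, 17 minus 3 months. Centring takes this shift out of genes near 0 as well, which moves their changes upward. Transcript lengths and GC content came from GENCODE M21, matched by gene name for 96.7% of genes tested. The model was tested on simulated data with independent noise and a small set of genes changed equally in both directions. Those data held no shift of medians and no length trend between the ages, so the test does not bear on the centring. Sex was read from 4 Y-linked genes with a limit of 5 TPM. That replicates are separate animals rests on the numbers in the headers.

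The comparison, the 38 gene lists and the tests were chosen with earlier results of these data known. Named genes were the 12 largest changes in each direction with a mean of at least 5 TPM that passed in TPM and RPKM without overlap, up to 4 called genes of smallest p and 2 uncalled genes per list, and 3110043O21Rik, Smcr8 and Wdr41. Alternatives covered scaling, pseudocount, filter, unit, sex, array weights, single animals left out, and, added after seeing the data, length and GC trends and all settings of the genotype differences. Trimmed mean of M values scaling used own code. Some genes picked by the naming rule are not reported here.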

Additional observations from a re-analysis of the deposited data

Results flagged for a closer look

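Of 326 groups of 4 libraries examined for 163 genes, 10 held a library far from the other 3, where chance alone gives about 1 in 20. Distances were judged on centred log2 values, so the TPM values given here can lie closer together. At 17 months, animal O3 had 97.3 TPM of Cst7, against 147 to 167 TPM in the other old animals, and 1020 TPM of P2ry13, against 727 to 844 TPM. Animal O4 had 52.3 TPM of Isg15, against 34.5 to 40.0 TPM, and animal O2 had 5.56 TPM of Zbtb18, against 4.03 to 4.72 TPM. Pcna in animal O1 stood apart after centring, at 113 TPM against 109 to 121 TPM. At 3 months, animal Y1 had 29.3 TPM of Cdkn1a, against 22.6 to 23.8 TPM, and 27.1 TPM of Isg15, against 17.6 to 19.2 TPM. Animal Y4 had 189 TPM of Mef2a, against 148 to 152 TPM, and 25 TPM of Tlr5, against 20.6 to 20.9 TPM, and its 75.5 TPM of Smad3 lay apart after centring from 76.7 to 79.8 TPM.

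The log2 change with age was more positive in wild types than in HOM animals by a tested difference for Ccl12 (1.12 on the log2 scale), Lpl (0.99), P2ry12 (0.93), Olr1 (0.76), Ccl6 (0.72), Ctss (0.72), P2ry13 (0.62), Rpl11 (0.60), Ly86 (0.57), Rpl23 (0.55), Mef2a (0.54), Rgs10 (0.48), H2-DMa (0.46), Gabarap (0.45), Lamp1 (0.44), Rnaseh2b (0.44), Ctsl (0.42) and the myelin gene Ermn (1.77). For P2ry12, P2ry13 and Mef2a the wild-type change was near 0 and that of HOM animals below 0. Ttll3 had the more negative change in wild types (by -0.94), with log2 changes of -1.32 in wild types and -0.38 in HOM animals. Apart from Ermn (adjusted p = 0.0412), none of these was called without centring. In RPKM, Rpl11 (adjusted p = 0.0819) and Rnaseh2b (adjusted p = 0.158) were not called, and Ermn and Olr1 were without a value. Ccl12, Ctsl, Ctss, Ermn, Lamp1, Ly86, P2ry13 and Rgs10 stayed called with any of the 24 animals left out, Rpl11 in 5 of these 24 fits and the others in 8 to 21.

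Against HET animals the differences were 4.36 for Kif5a, 4.17 for Kif5c, 4.15 for Rapgef4, 4.09 for Nrsn1, 3.67 for Kif1a, 3.55 for Mbp, 3.43 for Bcas1, 3.34 for Mobp, 3.31 for Rph3a, 2.35 for Mapt, 2.31 for S100b, 2.24 for Ermn and 0.44 for Manf. These are genes of neurons, myelin and astrocytes apart from Manf, and the neuronal and oligodendrocyte marker sums of wild types differed between the ages in the same direction. Levels were unlike, as animal O4 had 1295 TPM of Kif5a and a neuronal marker sum of 154 TPM. The part of RNA from other cells in these differences was not tested. Manf was the gene of this group not called without centring (adjusted p = 0.171), and it was not called in RPKM either (adjusted p = 0.0731). Ermn was without a value in RPKM. With each of the 24 animals left out in turn, Ermn stayed called in all 24 fits, Bcas1 and Mbp in 23, Mapt in 20, Kif1a and Mobp in 16, Nrsn1 in 15, S100b in 12, Rph3a in 11, Kif5a, Rapgef4 and Manf in 9, and Kif5c in 8.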

How the results depend on the processing

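Against 5497 calls as reported, fits that left out single wild-type animals gave 4386 (without Y2) to 5542 (without O1) calls. These held 2704 to 3302 higher and 1682 to 2240 lower. Of the 5497 calls, 4350 (without Y2) to 5083 (without O1) were kept in the same direction. The split of calls moved with scaling: 59.9% of calls were higher as reported, 14.0% without centring (1049 higher and 6455 lower), 41.9% under quantile normalization (2278 and 3159) and 77.7% without a filter (7938 and 2278 among 10216 calls), where genes near 0 all carry the centring shift. Trimmed mean of M values gave 2804 and 2721. The share also moved with low genes, as 52.8% of calls were higher with a mean of at least 5 TPM (2504 and 2238). With a pseudocount of 5 it was 64.5% (3969 and 2189). The difference in alignments ranged from 3.76 to 10.1 M when single animals were left out, and the difference in library median from -0.447 to -0.372. The difference from HOM (478 genes) was 29 without centring and 130 to 758 with single animals left out. The difference from HET (140 genes) was 88 without centring, 86 with a pseudocount of 5 and 16 to 478 with single animals left out.

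Among named genes called as reported or under the alternative, those that changed sign were Il18 (-0.39), Mef2a (-0.34), Spi1 (-0.14) and Tap2 (-0.31) without centring; C1qa (-0.047), Ctsd (-0.24), Gapdh (-0.017), Rgs10 (-0.18) and Spi1 (-0.094) under quantile normalization; Rps27 (1.24) in RPKM; and Il18 with the length trend (-0.49) or length and GC trends (-0.48) removed; the cause was not tested beyond the scaling itself. Named genes called in neither case also changed sign, 7 of them without centring, 8 under quantile normalization and 0 to 6 under each other setting. A further 13 named genes that were not called as reported were called lower without centring and 7 under quantile normalization, while 16 and 8 lost their call. Without centring the calls lost were those of Bsg, C1qa, C4b, Cdkn1a, Clec12a, Ctsl, Folr2, Hspe1, Ier2, Manf, Oas1a, Pcna, Rgs10, Rnaseh2b, Rsad2 and Tlr2. Under quantile normalization they were those of B2m, Bsg, Ctss, Fcer1g, Ier2, Lamp1, Ly86 and Trem2. No paired analysis was possible because the table columns carry animal numbers with no known link to the replicate numbers in the titles. With 4 animals per age a single value cannot give an exact p below 0.0286.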
